A study of Mus musculus with 16 samples.

Results

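Klf2, Klf3, Klf4, Klf6, Foxo1, Foxo3, Foxp1, Btg1, Btg2 and Tob1 were followed as a set of 10 genes linked to the resting state of lymphocytes. All probe sets whose platform symbol was 1 of these genes alone were taken, which gave 37 probe sets of the 45037 on the array that are no array controls, and 10 of 18194 named genes. Foxp1 had 8 of these probe sets, Klf3 had 7, Klf6 had 5, Foxo1 had 4, Foxo3 and Btg1 had 3 each, Btg2, Klf4 and Tob1 had 2 each, and Klf2 had 1. Of the 37, 35 passed the filter on low signal (above the 40th percentile of the array on at least 4 of 16 arrays). The remaining Klf3 probe set, 1458487_at, and the remaining Foxo3 probe set, 1450236_at, did not pass. One more probe set, 1444226_at, carries Foxo3 together with Gm38485. It was not counted as a member and was at or below the floor on 11 of 16 arrays.

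RNA was measured on Affymetrix Mouse Genome arrays, 4 per group, in B1a cells of the peritoneal cavity from B6.Sle2c1 (Sle2c1) mice, in B1a cells from C57BL/6 (B6) mice, and in splenic B cells (Bs) from Sle2c1 and from B6 mice. Sle2c1 is a congenic segment from the lupus-prone NZM2410 strain on the B6 background, and it holds Cdkn2c, which encodes a cyclin-dependent kinase inhibitor. All mice were 5 months old. The labels name no other allele or agent and give neither sex nor processing day. B1a cells were cultured for 2 h in 10% serum, so that macrophages adhered and were left behind, then negatively selected with Thy1.2 and CD3ε antibodies and positively selected for CD5. The labels put these preparations at 80% B220int CD5+ cells. Bs cells were the CD43-negative fraction of the spleen, above 90% B220hi. The culture step, the tissue and the selection therefore differ between B1a and Bs cells together with the cell type and cannot be told apart from it. In such bulk samples, fewer cells of a type and less RNA per cell cannot be told apart either.

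Krüppel-like factors are zinc finger proteins that bind CACCC-type and GC-rich DNA. Klf2 and Klf4 are known to restrain lymphocyte division, and Klf2 and Klf3 act on mouse B cell subsets and their homing. FOXO proteins are kept out of the nucleus when PI3K and Akt are active, and in quiet cells they drive cell cycle inhibitors and homing receptors, while Foxp1 is a forkhead repressor that mature B and naive T cells need. BTG and TOB proteins recruit the CCR4-NOT deadenylase to messages, which speeds their decay, and Btg1 and Btg2 are known to keep T cells quiet.

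The deposited values are a log-like score of unstated base, so every level and difference below is in score units and none is a fold. Values under 0.495 units were raised to that floor, so a value called at the floor is low and its size was not used in the main fit. Some of these were low scores, such as 0.13 for Klf4 1417395_at on Sle2c1 B1a replicate 3. Others were the lowest value of their array. Correlations between arrays of a group lay between 0.784 and 0.968. The lowest mean correlations with the other arrays of the group were 0.844 for Sle2c1 B1a replicate 4, 0.857 for B6 Bs replicate 3, 0.883 for Sle2c1 B1a replicate 1 and 0.885 for B6 Bs replicate 1. Counts were repeated without Sle2c1 B1a replicate 4, B6 Bs replicates 1 and 3 and Sle2c1 Bs replicate 3 together, called the 4 arrays in doubt and picked with earlier results known, and without each of the 16 arrays singly. The arrays in doubt do not follow that ranking, since Sle2c1 B1a replicate 1 was kept and Sle2c1 Bs replicate 3 had a mean correlation of 0.938. Cdkn2c, which lies in the Sle2c1 segment, averaged 0.613 units in Sle2c1 B1a cells against 1.21 in B6 B1a cells. In Bs cells it averaged 0.521 units in Sle2c1 against 1.41 in B6 mice. It was thus lower in Sle2c1 mice in both cell types (limma, adjusted p = 0.00382 and 0.00152). Among B1a genes, Il10, a regulatory cytokine, averaged 2.65 units in Sle2c1 B1a cells and 2.81 in B6 B1a cells, and it lay at the floor in both Bs groups. Cd5, the gene of the selected surface protein, averaged 0.745 units in Sle2c1 and 1.08 in B6 B1a cells, which is low, and lay at the floor on all Bs arrays. Cr2, a gene of follicular and marginal zone B cells, averaged 0.899 units in Sle2c1 B1a against 3.44 in Sle2c1 Bs cells, and 1.23 in B6 B1a against 3.32 in B6 Bs cells.

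**Figure D1:**
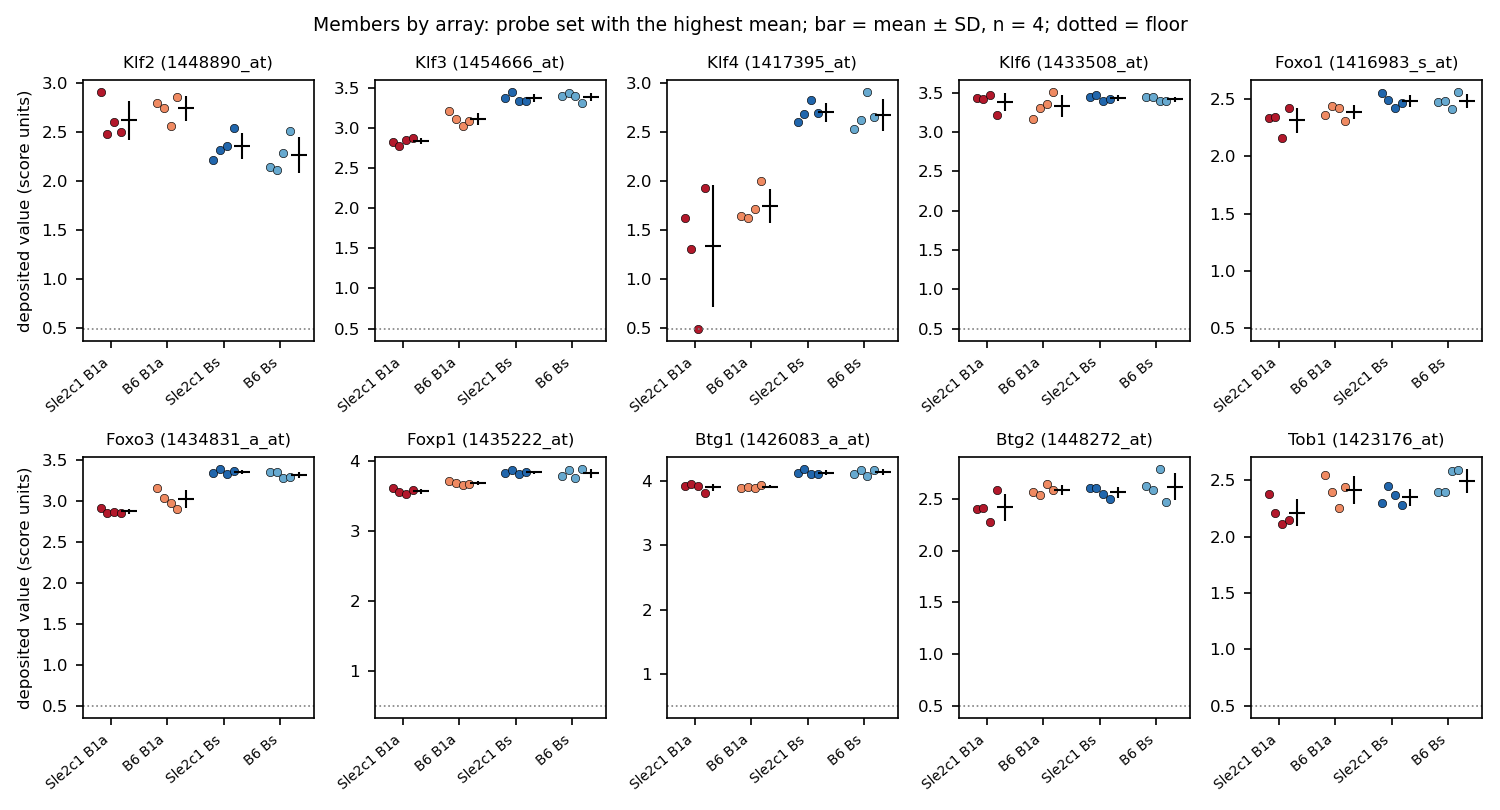
Deposited value (score units) of the probe set with the highest mean for each of the 10 genes, with 1 point per array in Sle2c1 B1a, B6 B1a, Sle2c1 Bs and B6 Bs cells, the mean ± SD beside them (n = 4) and the floor dotted. Klf3, Klf4, Foxo3, Foxp1 and Btg1 lie lower in both B1a groups than in the Bs groups, Klf2 lies higher in B1a cells without overlap in B6 mice and with overlap in Sle2c1 mice, and for Klf3 the Sle2c1 B1a arrays (2.78 to 2.87) lie below the B6 B1a arrays (3.03 to 3.21).

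Between strains, Klf3 was the 1 gene of the set with probe sets past the threshold in B1a cells, where it was lower in Sle2c1 mice, and 0 members passed in Bs cells. Of the 35 probe sets, 4 were lower and 0 higher in Sle2c1 than in B6 B1a cells (limma, Benjamini-Hochberg adjusted p under 0.05 over all 35032 probe sets tested). This is 11.4% of the members, beside 3.51% of all probe sets tested, of which 1.64% were lower and 1.88% higher (574 and 657 probe sets, or 851 and 633 with median centring and 421 and 167 with all arrays put on one line through the hybridisation controls). The difference was below 0 for 28 of the 35, with a median of -0.138 units over the members against 0.015 over all probe sets. In 11 of the 35 the arrays of the groups did not overlap, beside 8.36% of all probe sets. All 11 belonged to Klf3 and Foxp1, so they come from 2 genes and are not independent of each other.

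Klf3 encodes a repressor of the KLF family that recruits the corepressor CtBP. Its brightest probe set, 1454666_at, had 2.83, 2.78, 2.85 and 2.87 units in Sle2c1 B1a cells against 3.21, 3.11, 3.03 and 3.09 in B6 B1a cells. In Bs cells it had 3.37, 3.45, 3.34 and 3.33 units in Sle2c1 against 3.40, 3.43, 3.40 and 3.31 in B6 mice. The lowest values were thus those of Sle2c1 B1a cells, B6 B1a cells lay between them and Bs cells, and the Bs groups of both strains overlapped. The strain difference in B1a cells was -0.277 ± 0.0555 units (SE, limma adjusted p = 0.0119).

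Klf3 probe set 1429360_at had 1.69, 1.49, 1.57 and 1.65 units in Sle2c1 B1a cells, against 2.28, 2.16, 2.09 and 2.11 in B6 B1a cells. In Bs cells it had 2.06, 2.16, 1.95 and 2.23 units in Sle2c1 and 2.20, 2.09, 1.91 and 2.09 in B6 mice. For this probe set only the Sle2c1 B1a arrays stood apart, since B6 B1a cells overlapped both Bs groups. The strain difference in B1a cells was -0.56 ± 0.0803 units (limma adjusted p = 0.00101), and in Bs cells it was 0.0275 units (adjusted p = 1). The difference between these strain effects was -0.587 ± 0.114 units (limma adjusted p = 0.0372). It was the 1 member probe set past the threshold there, 2.86% of 35 beside 0.462% of all probe sets (0.203% lower and 0.26% higher). With the replicate number as a block within each cell type, which fits the pairing of the Bs samples, it did not pass (limma adjusted p = 0.0623). It also lost the call with median centring, with quantile normalization, without the 4 arrays in doubt, and without 11 of the 16 arrays left out singly. The call held without Sle2c1 B1a replicate 1 or 4, B6 B1a replicate 4, Sle2c1 Bs replicate 3 or B6 Bs replicate 1.

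The other Klf3 probe sets were dimmer. 1441200_at had 1.05 and 1.30 units on the first 2 Sle2c1 B1a arrays and lay at the floor on the others, against 1.65, 1.68, 1.64 and 1.67 in B6 B1a cells. 1421604_a_at had 0.59 and 0.88 units on the same 2 arrays and the floor on the others, against 1.39, 1.25, 1.22 and 1.49 in B6 B1a cells. For both the strains did not overlap in B1a cells, and the differences were -0.825 ± 0.146 and -0.723 ± 0.12 units (limma adjusted p = 0.00487 and 0.00293). 1442920_at lay at the floor on all Sle2c1 B1a arrays and on 1 B6 B1a array, so its difference of -0.361 units is set in part by the floor and bounds nothing, and it did not pass (adjusted p = 0.0688). 1431630_a_at had a difference of -0.461 units that did not pass either (adjusted p = 0.237), with overlapping groups. In Bs cells the 6 tested Klf3 probe sets differed between strains by -0.05 to 0.0275 units. Without the 4 arrays in doubt the same 4 Klf3 probe sets passed in B1a cells, as they did without any single array. The dim 1421604_a_at and 1441200_at, each at the floor on 2 Sle2c1 B1a arrays, lost their calls with no floor, as did 1421604_a_at with a floor at 1 unit, and 1441200_at and 1454666_at with only the 8 B1a arrays in the fit. With that control scaling their differences were -0.424, -0.847, -1.15 and -1.08 units in the order above, beside a median of -0.247 over all probe sets, and none passed (limma adjusted p = 0.312, 0.225, 0.0936 and 0.0871).

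**Figure D2:**
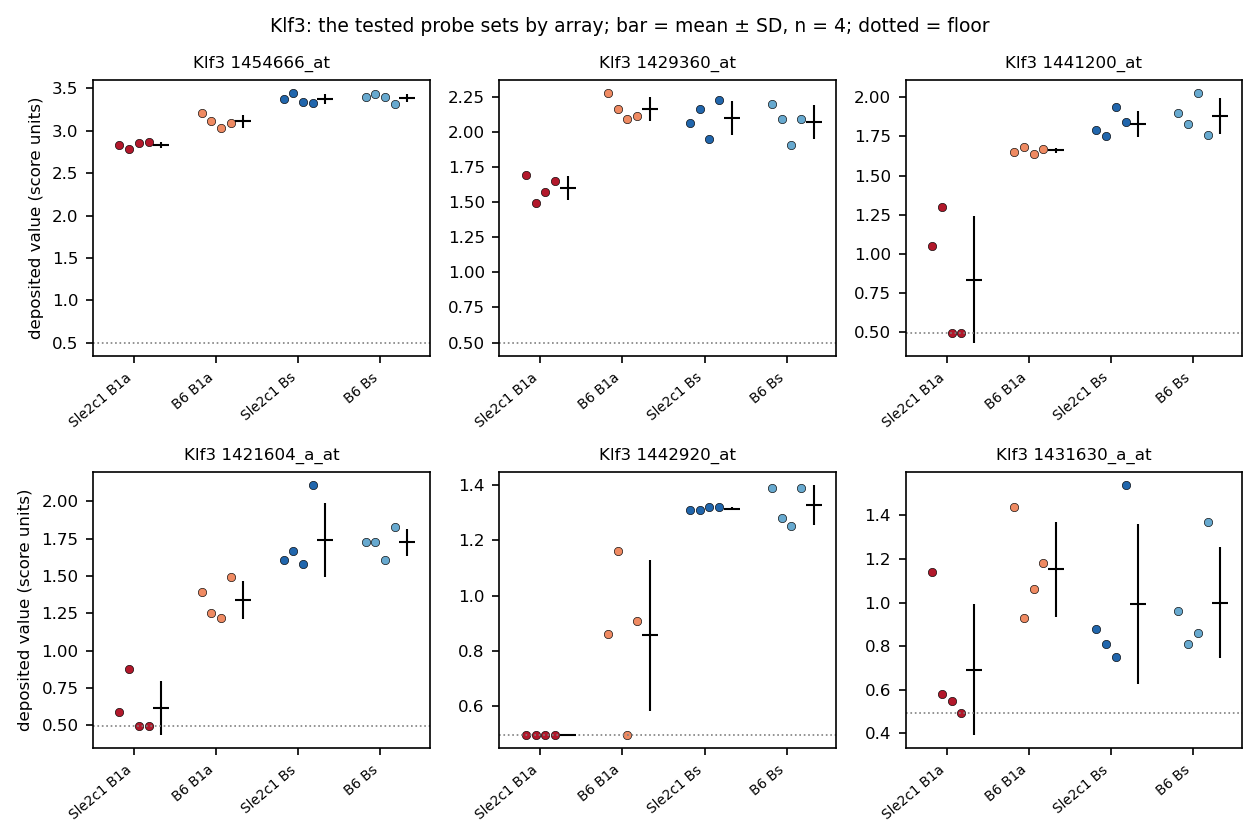
Deposited value (score units) of the 6 tested Klf3 probe sets, 1 point per array in Sle2c1 B1a, B6 B1a, Sle2c1 Bs and B6 Bs cells, with mean ± SD (n = 4) and the floor dotted. In 1454666_at, 1429360_at, 1441200_at and 1421604_a_at all Sle2c1 B1a points lie below all B6 B1a points, while Sle2c1 and B6 overlap in Bs cells in all 6.

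Of the other genes, Foxp1 came closest to the threshold without passing it. All 8 of its probe sets had differences below 0 between Sle2c1 and B6 B1a cells, between -0.598 and -0.11 units, with limma adjusted p between 0.08 and 0.262. With a trended, robust prior 3 of the 8 passed (1421142_s_at, 1435222_at and 1455242_at). The brightest, 1435222_at, had 3.61, 3.55, 3.53 and 3.58 units in Sle2c1 B1a cells against 3.72, 3.68, 3.65 and 3.67 in B6 B1a cells. 1421142_s_at had 2.68, 2.50, 2.56 and 2.49 units against 2.75, 2.75, 2.72 and 2.73 in B6 B1a cells. In both, and in 5 more of the 8, the strains did not overlap. The difference for 1421142_s_at was -0.18 units (95% interval -0.298 to -0.0621, adjusted p = 0.0956). For 1443258_at the groups overlapped, since 1 Sle2c1 array had 1.49 units and 2 lay at the floor.

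None of the other genes had a probe set past the threshold between strains in B1a cells. Foxo3, a FOXO factor, had 2.91, 2.85, 2.87 and 2.86 units of 1434831_a_at in Sle2c1 B1a cells against 3.16, 3.04, 2.98 and 2.90 in B6 B1a cells. The groups overlapped at 1 pair of values, and the difference of -0.147 units did not pass (limma adjusted p = 0.199). Tob1, an antiproliferative member of the BTG/TOB family, had -0.198 units for 1423176_at (adjusted p = 0.23). For Foxo1, the FOXO factor on which B cell development depends, the 4 differences lay between -0.362 and -0.04 units. For Btg1 the 3 differences lay between -0.01 and 0.0775 units, and the 95% interval for its brightest probe set, 1426083_a_at, was -0.119 to 0.0988.

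In Bs cells 0 of 35 member probe sets passed between strains by limma, beside 0.131% of all probe sets (0.108% higher and 0.0228% lower). At an unadjusted p under 0.05, 1 of 35 members and 1209 of 35032 probe sets were found. This member, Foxp1 1421140_a_at, had 2.32, 2.29, 2.35 and 2.52 units in Sle2c1 Bs cells against 2.24, 2.25, 2.24 and 2.21 in B6 Bs cells, with no overlap, beside 2.34% of all probe sets without overlap. Its difference was 0.135 units, the other way from B1a cells, and the difference of its strain effects did not pass (-0.273 units, adjusted p = 0.305). The median difference was 0.015 units over the members and 0.01 over all probe sets. Arrays of the same replicate number deviated together in both Bs groups, and with the replicate number as a block 0 member probe sets passed as well.

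**Figure D3:**
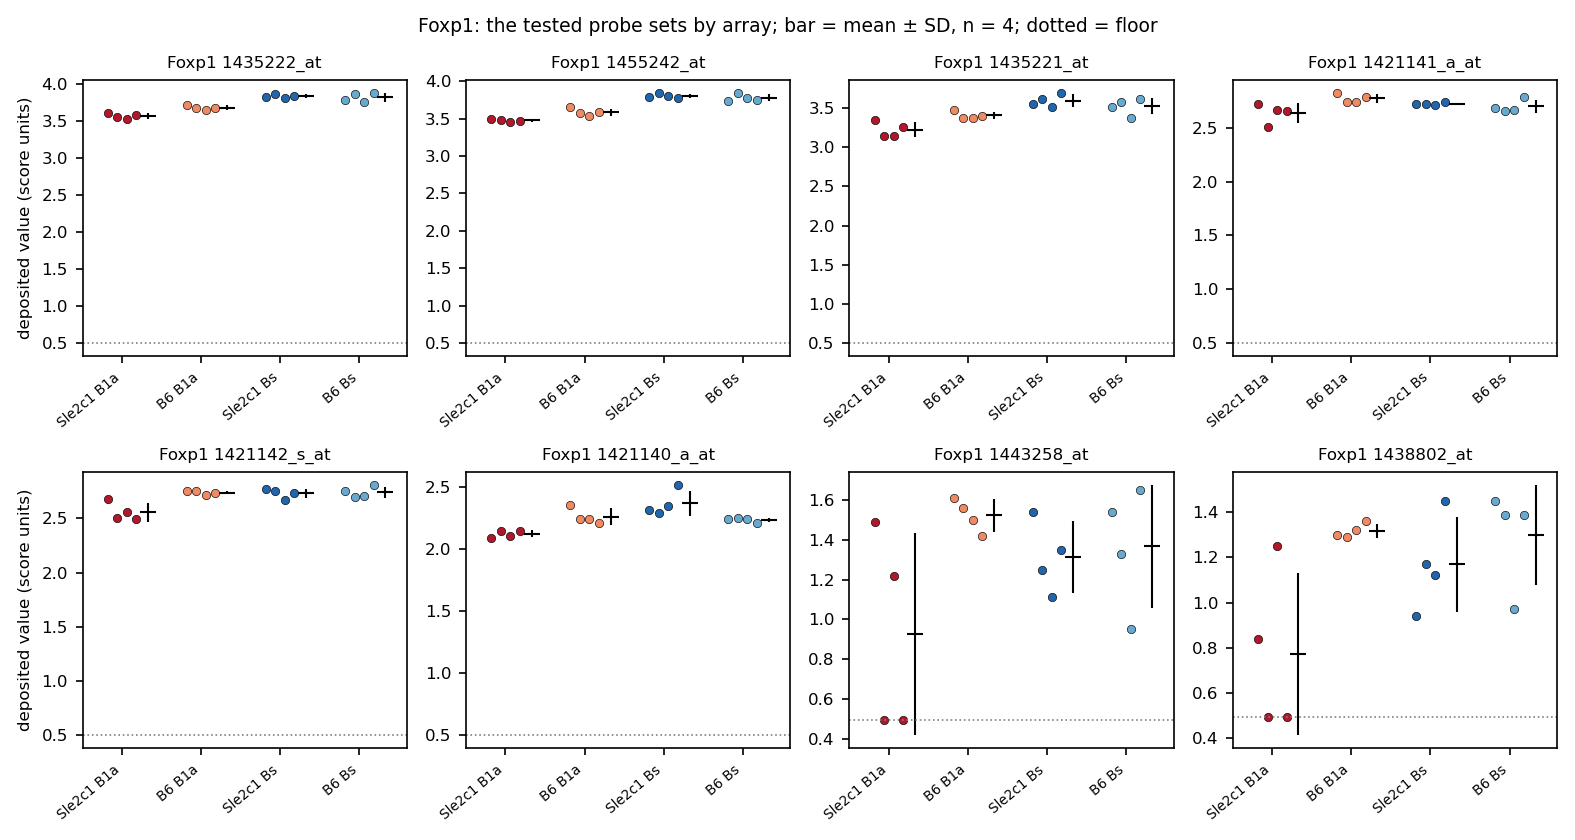
Deposited value (score units) of the 8 Foxp1 probe sets, 1 point per array in Sle2c1 B1a, B6 B1a, Sle2c1 Bs and B6 Bs cells, with mean ± SD (n = 4) and the floor dotted. The Sle2c1 B1a mean is the lowest of the 4 groups in each panel, and the 3 brightest probe sets have both B1a groups below the Bs means.

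Markers of other cell types differed between the B1a preparations of the strains. Of 15 measured macrophage markers, 8 were lower and 0 higher in Sle2c1 than in B6 B1a cells. Their mean level ran from 1.05 to 1.12 units over the Sle2c1 B1a arrays against 1.37 to 2.31 over the B6 B1a arrays. Timd4 and Csf1r, defining macrophage genes, lay at the floor on all Sle2c1 B1a arrays against 2.25 and 1.32 units on average in B6 B1a cells. Of 9 measured T cell markers 1 was lower, Cd3g (-0.866 units, adjusted p = 0.0139). Of 5 measured eosinophil markers 1 was higher and 2 lower, of 7 plasma cell genes 1 and 1, and of the measured NK, neutrophil, mast, dendritic, erythroid and stromal markers 0 passed. Whether macrophage or T cell RNA has a part in the Klf3 values was not tested. Of the 9 measured defining B cell genes, 0 passed between strains in B1a cells, with a median of -0.05 units. The smallest adjusted p among them was that of Cd79b, with -0.207 units (limma adjusted p = 0.127). Its Sle2c1 B1a arrays (3.21 to 3.23 units) lay below the B6 B1a arrays (3.29 to 3.53).

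Between cell types, Klf4, Btg1, Klf3 and Foxo3 were lower in B1a than in Bs cells of both strains, by their brightest probe sets, and Foxp1 in Sle2c1 mice. In B6 mice the brightest Foxp1 probe set, 1435222_at, had -0.142 units without overlap and came close without passing (limma adjusted p = 0.0554). It passed there with no filter, a trended, robust prior or array weights, among other settings. With median centring of the arrays the brightest probe sets of Btg1 and Foxp1 in Sle2c1 mice, and of Btg1, Klf3 and Foxo3 in B6 mice, lost their calls. Their differences were then -0.253 and -0.293 units in Sle2c1, and -0.197, -0.247 and -0.27 in B6 mice. In Sle2c1 mice 17 of the 35 member probe sets were lower and 1 higher in B1a cells, beside 13.7% lower and 11.1% higher among all probe sets. In B6 mice 11 were lower and 2 higher, beside 10.7% lower and 9.21% higher. Members past the threshold in either direction were thus 51.4% in Sle2c1 and 37.1% in B6 mice, beside 24.8% and 19.9% of all probe sets. Groups did not overlap for 17 members in Sle2c1 and 16 in B6 mice, beside 24.7% and 22.1%. Counted once per gene by the brightest probe set, 5 of 10 genes were lower and 0 higher in Sle2c1, and 4 lower and 1 higher in B6 mice, against 27% and 21.8% of all named genes called. The median difference over the members was -0.27 units in Sle2c1 and -0.0975 in B6 mice, against -0.0263 and -0.0275 over all probe sets. Of 15 macrophage markers 3 were higher and 5 lower in B1a cells of Sle2c1 mice, and 9 and 1 in B6 mice. Of 8 mast cell markers 3 were higher in Sle2c1 and 6 in B6 mice. Of 6 NK markers 4 were lower in Sle2c1 and 3 in B6 mice. Of 4 erythroid markers 1 was lower in Sle2c1 and 3 in B6 mice, and of 6 stromal markers 2 were lower in each. Of 9 T cell markers 2 were higher and 1 lower in Sle2c1, and 3 and 1 in B6 mice. Of 9 neutrophil markers these were 3 and 1 in Sle2c1, and 2 and 2 in B6 mice. The part of any of these markers in the member values was not tested.

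**Figure D4:**
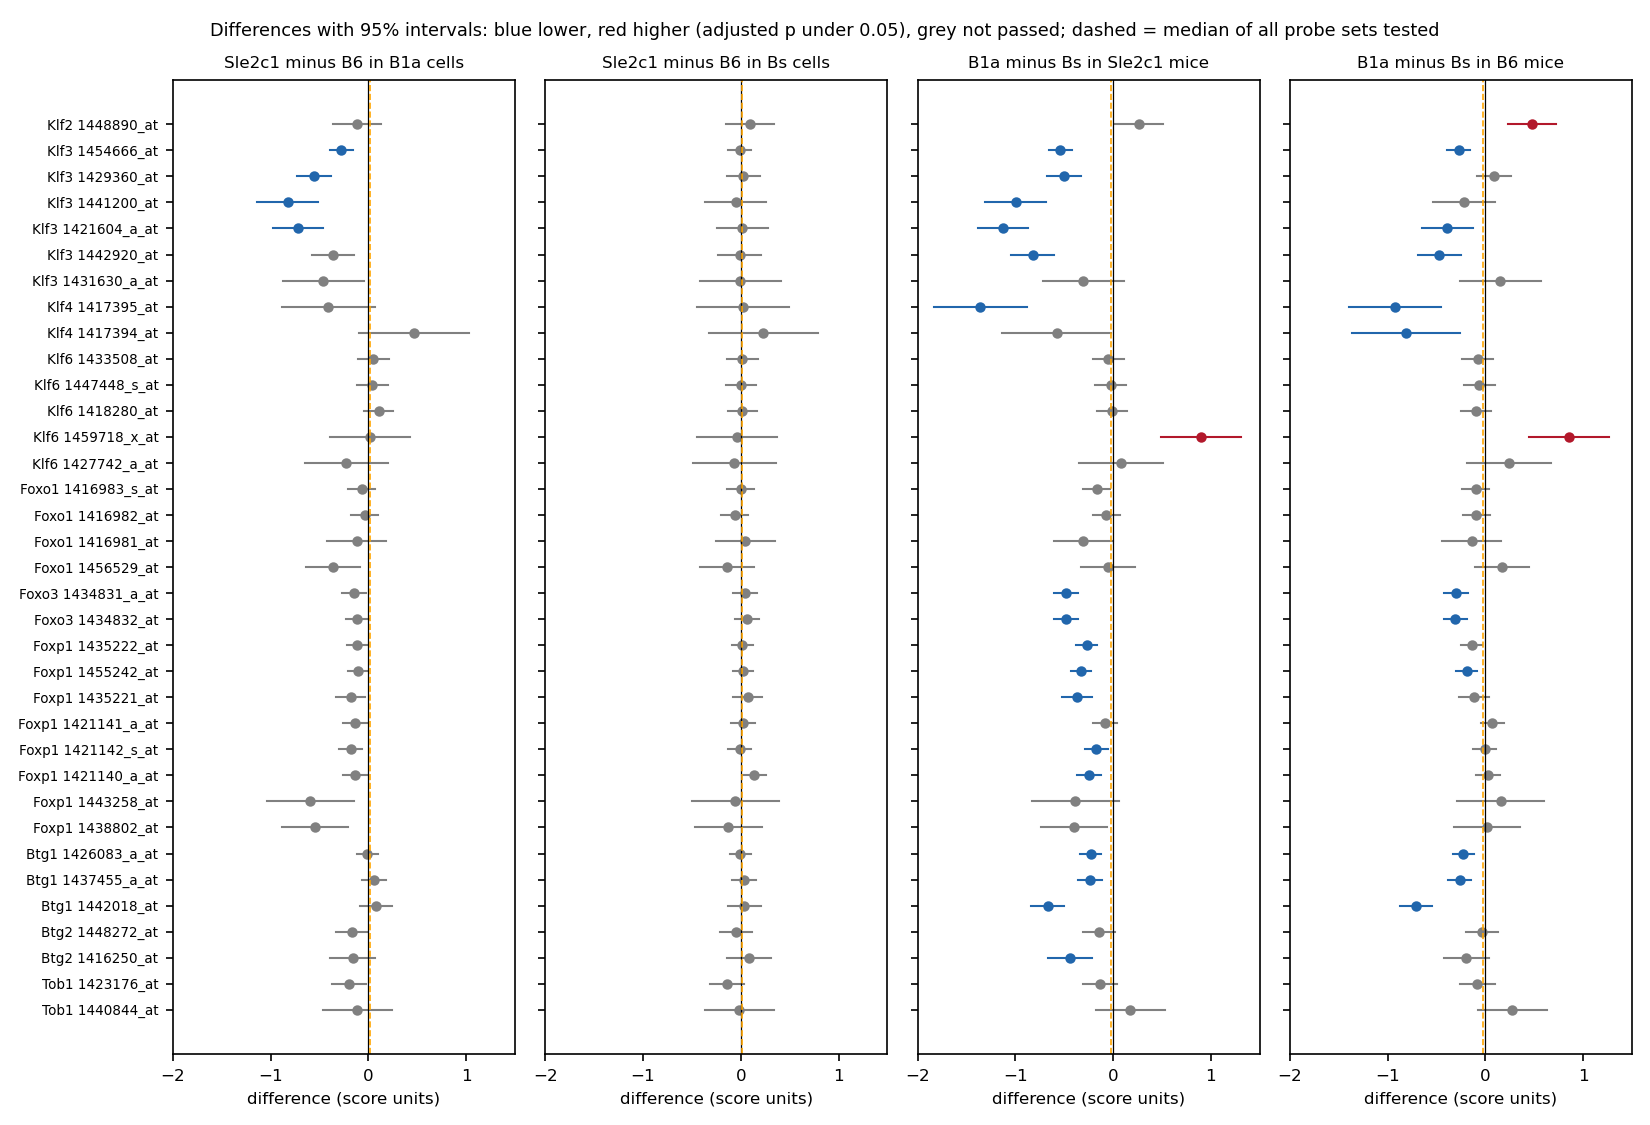
Differences in score units with 95% intervals for the 35 tested member probe sets in 4 comparisons, Sle2c1 minus B6 in B1a and in Bs cells and B1a minus Bs in Sle2c1 and in B6 mice. Blue is lower and red higher at adjusted p under 0.05, grey did not pass and the dashed line is the median of all probe sets. Blue marks 4 Klf3 probe sets in the first panel and none in the second, and 17 and 11 probe sets in the panels of cell types.

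The upstream sequence of the 4 genes whose brightest probe sets were lower in B1a cells of both strains is shown so that their start regions can be compared. Each is the 250 bases before the RefSeq gene start (GRCm38.p6), written 5′ to 3′ on the strand of the gene, and capitals mark CACCC or its reverse complement GGGTG and the forkhead core GTAAACA or its reverse complement TGTTTAC. The sequences lie at chr5:64803271-64803520 (+) for Klf3, chr4:55532476-55532725 (-) for Klf4, chr10:42276696-42276945 (-) for Foxo3 and chr10:96616751-96617000 (+) for Btg1.
Klf3: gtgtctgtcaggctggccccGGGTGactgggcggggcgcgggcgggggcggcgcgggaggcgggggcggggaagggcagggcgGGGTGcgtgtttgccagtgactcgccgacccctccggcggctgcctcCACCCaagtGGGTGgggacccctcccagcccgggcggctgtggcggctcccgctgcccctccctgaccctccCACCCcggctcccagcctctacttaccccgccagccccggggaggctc
Klf4: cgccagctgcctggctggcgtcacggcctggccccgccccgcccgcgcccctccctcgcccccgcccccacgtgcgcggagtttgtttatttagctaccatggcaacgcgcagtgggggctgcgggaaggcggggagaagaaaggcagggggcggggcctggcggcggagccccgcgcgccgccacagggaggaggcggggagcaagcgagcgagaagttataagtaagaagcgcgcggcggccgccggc
Foxo3: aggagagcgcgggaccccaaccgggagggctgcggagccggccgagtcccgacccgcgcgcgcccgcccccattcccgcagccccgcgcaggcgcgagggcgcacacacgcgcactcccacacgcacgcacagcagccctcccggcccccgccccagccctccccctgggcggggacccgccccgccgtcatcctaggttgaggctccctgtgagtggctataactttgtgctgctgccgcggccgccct
Btg1: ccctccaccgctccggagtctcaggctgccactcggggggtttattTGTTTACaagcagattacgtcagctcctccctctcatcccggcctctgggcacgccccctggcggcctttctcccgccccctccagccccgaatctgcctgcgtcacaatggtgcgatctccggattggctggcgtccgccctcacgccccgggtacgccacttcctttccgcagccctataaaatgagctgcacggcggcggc
Klf3 held 5 copies of the CACCC letters, which 52% of 32851 mouse promoter windows of this length hold at least once. Btg1 held 1 copy of the forkhead letters, found in 3.17% of the windows. Klf4 and Foxo3 held neither. These matches are letters in a window and no binding was measured.

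Klf4, a KLF family factor that slows lymphocyte division, had a difference of over 0.9 units between cell types in both strains. Probe set 1417395_at had 1.63 and 1.31 units on Sle2c1 B1a arrays 1 and 2, the floor on array 3 and 1.93 units on array 4. In Sle2c1 Bs cells it had 2.60, 2.68, 2.83 and 2.69 units. In B6 mice it had 1.65, 1.63, 1.72 and 2.00 units in B1a cells against 2.53, 2.62, 2.91 and 2.65 in Bs cells. No B1a array reached a Bs array in either strain, and the differences were -1.36 ± 0.222 units in Sle2c1 and -0.927 ± 0.222 in B6 mice (limma adjusted p = 0.000433 and 0.00917), the first a minimum size because of the array at the floor. The second probe set, 1417394_at, had overlapping groups in both strains, with -0.578 units in Sle2c1 (adjusted p = 0.122) and -0.815 in B6 mice (adjusted p = 0.0412), a call lost without any 1 of 10 of the 16 arrays.

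Btg1, whose product recruits the deadenylase, was lower in B1a cells by all 3 probe sets in both strains on the values as deposited. For 1442018_at B1a cells had 2.30, 2.42, 2.59 and 2.48 units and Bs cells 3.07, 3.16, 3.12 and 3.12 in Sle2c1 mice. In B6 mice B1a cells had 2.43, 2.25, 2.52 and 2.28 units and Bs cells 3.18, 3.08, 3.11 and 2.96. The cell types did not overlap, and the strains did within each cell type. The differences were -0.67 ± 0.0777 units in Sle2c1 (limma adjusted p = 1.98e-05) and -0.712 ± 0.0777 in B6 mice (1.39e-05). The brighter 1426083_a_at and 1437455_a_at had smaller differences, -0.23 and -0.24 units in Sle2c1 and -0.225 and -0.265 in B6 mice, without overlap. With quantile normalization these were -0.0506 and -0.0856 units in Sle2c1 and -0.0963 and -0.18 in B6 mice, and all 4 calls were lost, as they were with median centring.

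Btg2, the paralog of Btg1, was lower in B1a cells by 1 of 2 probe sets in Sle2c1 mice and by none in B6 mice. 1416250_at had 1.01, 1.53, 1.39 and 1.59 units in Sle2c1 B1a cells against 1.73, 1.79, 1.98 and 1.78 in Sle2c1 Bs cells. Its differences were -0.44 units in Sle2c1 (limma adjusted p = 0.00774) and -0.195 in B6 mice (adjusted p = 0.22), and the test of the difference between strains gave -0.245 units (adjusted p = 0.811). In B6 mice the groups did not overlap either, at 1.46 to 1.62 units in B1a and 1.64 to 1.82 in Bs cells. The Sle2c1 call was lost with only the 8 arrays compared. It was also lost with the control scaling, at -0.0536 units relative to the median of all probe sets. The brighter 1448272_at did not pass in either strain, with -0.147 and -0.0325 units. Tob1 had no probe set past the threshold. Its 2 probe sets went different ways, -0.138 units for 1423176_at and 0.175 for 1440844_at in Sle2c1 mice, and -0.0825 and 0.275 in B6 mice.

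Klf3 was lower in B1a cells by 5 of 6 tested probe sets in Sle2c1 mice, between -1.13 and -0.5 units, and by 3 of 6 in B6 mice. Of these, 1442920_at lay at the floor on all Sle2c1 B1a arrays, so its -0.82 units in Sle2c1 mice is a lower bound of the size, and the B6 call of 1421604_a_at was lost without any 1 of 5 of the arrays. In Sle2c1 mice 1421604_a_at (-1.13 units) and 1441200_at (-0.995 units) each had 2 B1a arrays at the floor. Both calls were lost with no floor, as were the B6 calls of 1442920_at and 1421604_a_at. The brightest, 1454666_at, with the values given above, differed by -0.54 units in Sle2c1 (limma adjusted p = 6.00e-06) and -0.275 in B6 mice (adjusted p = 0.00296). For 1429360_at the differences were -0.5 units in Sle2c1 and 0.0875 in B6 mice, where the groups overlapped (adjusted p = 0.488). Its difference between the strains is the strain effect tested above, and no other Klf3 probe set passed that test.

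Both tested Foxo3 probe sets were lower in B1a cells in both strains. 1434831_a_at had the B1a values given above, against 3.34, 3.39, 3.33 and 3.37 units in Sle2c1 Bs cells and 3.35, 3.35, 3.28 and 3.29 in B6 Bs cells. 1434832_at had 2.55, 2.49, 2.47 and 2.42 units in Sle2c1 B1a cells against 2.94, 2.96, 2.96 and 3.00 in Sle2c1 Bs cells, and 2.70, 2.59, 2.59 and 2.50 in B6 B1a cells against 2.94, 2.93, 2.92 and 2.82 in B6 Bs cells. No B1a array reached a Bs array of its strain in either probe set. The differences were -0.485 and -0.482 units in Sle2c1 (limma adjusted p = 2.43e-05 and 2.01e-05) and -0.297 and -0.307 in B6 mice (0.00219 and 0.0014). With median centring both B6 calls were lost, at -0.27 and -0.28 units. With the control scaling the calls in both strains were lost, and 1434832_at had 0.0246 units in Sle2c1 and 0.255 in B6 mice. Relative to the median of all probe sets these were -0.357 and -0.181.

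Foxp1 was lower in B1a cells by 5 of 8 probe sets in Sle2c1 mice and by 1 of 8 in B6 mice, and the Sle2c1 call of 1421142_s_at was lost without any 1 of 6 of the arrays. 1455242_at, the 1 that passed in both, had 3.50, 3.48, 3.46 and 3.47 units in Sle2c1 B1a cells against 3.79, 3.85, 3.80 and 3.78 in Sle2c1 Bs cells. In B6 mice it had 3.65, 3.57, 3.54 and 3.59 units in B1a against 3.74, 3.85, 3.78 and 3.75 in Bs cells. The cell types did not overlap in either strain, and the differences were -0.328 and -0.193 units (limma adjusted p = 0.000187 in Sle2c1 and 0.0126 in B6 mice). The B6 call was lost with median centring (-0.165 units), quantile normalization (-0.111 units) and the control scaling, and at adjusted p under 0.01. The difference of these effects between strains did not pass for any Foxp1 probe set (adjusted p between 0.305 and 0.75). Foxo1 had no probe set past the threshold in either strain. Its brightest, 1416983_s_at, had 2.33, 2.34, 2.16 and 2.42 units in Sle2c1 B1a cells against 2.55, 2.49, 2.42 and 2.46 in Sle2c1 Bs cells. These overlapped at 2.42, and the difference of -0.168 units did not pass (limma adjusted p = 0.0707). It gained a call with no filter, a trended, robust prior, array weights or without the 4 arrays in doubt, among other settings.

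Klf2 and 1 Klf6 probe set went the other way. Klf2, which holds B and T cells in a quiet, recirculating state, had 2.91, 2.48, 2.60 and 2.50 units in Sle2c1 B1a cells against 2.22, 2.32, 2.36 and 2.54 in Sle2c1 Bs cells, which overlap. In B6 mice it had 2.80, 2.75, 2.56 and 2.86 units in B1a cells against 2.14, 2.11, 2.29 and 2.51 in Bs cells, which do not. The differences were 0.263 units in Sle2c1 (limma adjusted p = 0.11) and 0.48 in B6 mice (adjusted p = 0.0091), and the B6 call was lost without the 4 arrays in doubt. Klf6, induced early in many stimulated cells, had 5 tested probe sets, of which 1459718_x_at passed in both strains. It had 1.80, 1.93, 1.93 and 1.38 units in Sle2c1 B1a cells against 0.92, 1.00, 0.97 and 0.54 in Sle2c1 Bs cells, and 1.52, 1.73, 1.73 and 2.01 in B6 B1a cells against 1.30, 1.20, 0.52 and 0.55 in B6 Bs cells. The differences were 0.902 and 0.855 units (adjusted p = 0.00314 in Sle2c1 and 0.00586 in B6 mice). The other 4 Klf6 probe sets had differences between -0.0975 and 0.24 units over both strains and none passed, so the probe sets of Klf6 disagree.

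The hybridisation controls, bacterial and phage RNAs that are normally added in a fixed amount to each array, also differed between the cell types. In B1a minus Bs cells bioB was -0.29 units in Sle2c1 and -0.273 in B6 mice, bioC was -0.37 and -0.358, bioD was -0.25 and -0.214, and cre was -0.0788 and -0.05. These sizes are like those of the 2 bright Btg1 probe sets, of Foxp1, and of Foxo3 and Klf3 1454666_at in B6 mice. Klf4 1417395_at, Btg1 1442018_at and, in Sle2c1 mice, the 5 Klf3 probe sets and both Foxo3 probe sets lay beyond them. All arrays were also placed on one line through the controls, with a slope and an offset for each array. Slopes ran from 0.725 to 1.74. Group means of the controls lay between 3.25 and 4.72 units, and the array medians between 0.68 and 1.12. Most probe sets were thus scaled beyond the range of the controls. This scaling put the median of all probe sets at 0.381 units in Sle2c1 and 0.436 in B6 mice. It gave 2994 higher and 129 lower calls in Sle2c1 mice, against 3875 and 4801 as deposited. In B6 mice it gave 2444 and 144, against 3226 and 3758. It left 1 member call in Sle2c1 (Klf6 1459718_x_at) and 2 in B6 mice (Klf2 and Klf6 1459718_x_at). Klf4 1417395_at then had -0.829 units in Sle2c1 and -0.256 in B6 mice, and Btg1 1442018_at had -0.19 and -0.136. In Sle2c1 mice the 5 Klf3 probe sets ran from -0.365 to 0.218 units, and both Foxo3 probe sets had -0.0608 and 0.0246. Relative to the median of all probe sets, Klf4 had -1.21 and -0.691 units and Btg1 -0.572 in both strains. The Klf3 probe sets ran from -0.746 to -0.164, and Foxo3 had -0.442 and -0.357. Under this scaling the brightest probe sets of Klf3, Foxo3 and Btg1 in B6 mice and of Btg1 and Foxp1 in Sle2c1 mice turned their direction. Relative to the median of all probe sets under that scaling they stayed below 0, at -0.279 units for Klf3 1454666_at, -0.272 for Foxo3 1434831_a_at and -0.425 for Btg1 1426083_a_at in B6 mice, and at -0.365 for Btg1 1426083_a_at and -0.334 for Foxp1 1435222_at in Sle2c1 mice. The defining B cell genes were lower in B1a cells too, 7 of 9 in Sle2c1 (median -0.225 units) and 6 of 9 in B6 mice (median -0.185). Whether scaling or the share of B cells has a part in the smaller or the larger differences was not tested. Between strains in B1a cells the controls differed by 0.136 units for bioB, 0.0825 for bioC, -0.0137 for bioD and -0.0688 for cre.

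**Figure D5:**
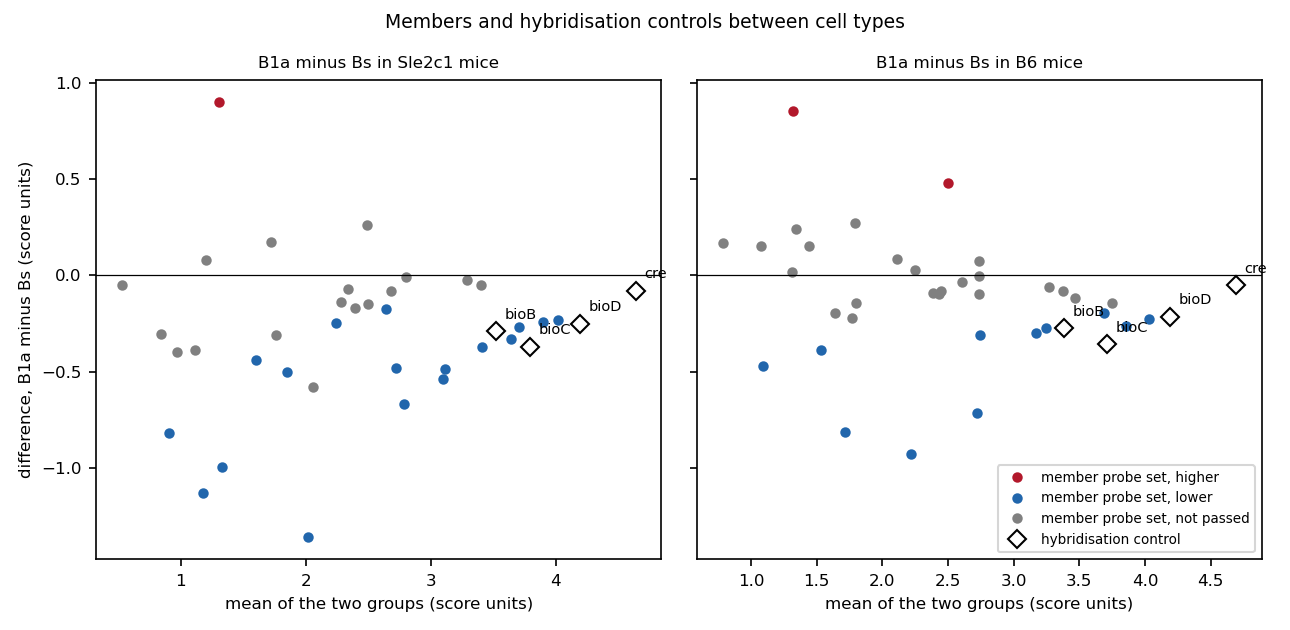
Difference B1a minus Bs (score units) against the mean of both groups (score units) for the 35 member probe sets, coloured by call, and for the hybridisation controls bioB, bioC, bioD and cre (open diamonds), in Sle2c1 and in B6 mice. The controls lie between -0.37 and -0.05 units, bioB and bioC among the bright member probe sets and bioD and cre to the right of all members. Klf4 1417395_at and Btg1 1442018_at lie below the controls.

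Genes around the members moved in both directions between the cell types. Of 23 measured genes known to depend on FOXO factors, 2 were higher and 10 lower in B1a than Bs cells in Sle2c1 mice, and 4 and 8 in B6 mice. These are 52.2% in both strains, beside 27% of all named genes called in Sle2c1 and 21.8% in B6 mice, to which the shares of the next lists compare. Ccng2, a cyclin-like gene of halted cells, had -0.775 units in Sle2c1 and -0.772 in B6 mice, and Sesn1, a stress sensor that dampens mTORC1, had -0.838 and -0.787. Blnk, the adaptor of the B cell receptor, had -0.757 and -0.71 units. Pik3ip1, an inhibitor of PI3K, was higher by 0.665 units in Sle2c1 and 0.532 in B6 mice. Of 16 measured PI3K and Akt pathway genes, 3 were higher and 5 lower in Sle2c1 (50%) and 4 and 3 in B6 mice (43.8%). Pik3r1, the regulatory subunit of PI3K, had -0.422 units in Sle2c1 mice.

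Of 8 measured genes known to depend on Klf2, 1 was higher and 3 lower in B1a cells in Sle2c1 mice (50%), and 2 and 3 in B6 mice (62.5%). Itgb7, an integrin subunit, was higher by 0.575 units in Sle2c1 and 0.487 in B6 mice, and Cr2 had -2.54 and -2.09 units. Cr2 and Fcer2a are also on the follicular and marginal zone list. Of 16 other measured KLF, FOXO, FOXP and BTG/TOB genes, 1 was higher and 2 lower in Sle2c1 (18.8%) and 1 and 1 in B6 mice (12.5%), below the shares of all named genes, and Klf9, a KLF factor, was higher in both (0.413 and 0.5 units). Of 11 measured CCR4-NOT partners of BTG proteins, 0 were higher and 3 lower in Sle2c1 (27.3%) and 0 and 1 in B6 mice (9.09%), near and below the shares of all named genes. Cnot6l, a deadenylase subunit, had -0.18 and -0.205 units.

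Of 20 other measured genes linked to a resting state, 2 were higher and 8 lower in B1a cells in Sle2c1 (50%) and 2 and 7 in B6 mice (45%). Dusp6, a phosphatase of ERK, had -1.48 units in Sle2c1 and -1.27 in B6 mice, Tsc22d3, a glucocorticoid-induced leucine zipper, had -0.71 and -0.623, and Cdkn1b, the kinase inhibitor p27, had -0.555 and -0.522. Of 25 measured immediate early genes, 12 were higher and 1 lower in B1a cells in Sle2c1 (52%) and 16 and 2 in B6 mice (72%), with medians of 0.439 and 0.698 units against -0.0075 over all named genes in both strains. Jun averaged 3.5 units in Sle2c1 B1a against 2.26 in Sle2c1 Bs cells, and 3.67 in B6 B1a against 2.44 in B6 Bs cells. Of 19 measured cell division genes, 0 were higher and 7 lower in Sle2c1 (36.8%) and 0 and 10 in B6 mice (52.6%). The 2 h culture was given to B1a cells alone, and its part in the immediate early and resting genes was not tested.

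Between strains in B1a cells few of these neighbours passed. The FOXO-dependent genes Gadd45b (-0.35 units, limma adjusted p = 0.0129) and Fbxo32 (-0.458, adjusted p = 0.0468) were lower in Sle2c1, as was the immediate early gene Ier2 (-0.741 units, adjusted p = 0.0056). No gene of the Klf2-dependent, PI3K and Akt, CCR4-NOT or other family lists passed, and Cdkn2c was the 1 gene of the resting list that did. All named genes called by their brightest probe set made up 3.54% in this comparison.

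Array by array, the members did not vary as 1 block. Taking each array's deviation from its group mean over the 16 arrays, Pearson's r between the brightest probe sets was 0.643 for Klf3 and Foxo3, 0.664 for Klf2 and Tob1 and 0.649 for Klf4 and Btg2, and -0.59 for Btg1 and Btg2. The genes whose deviations were most like Klf3 were Acap2 (r = 0.885), Cdk17 (0.849) and Herc4 (0.832). For Foxo3 they were Rubcn (0.921), Rasa3 (0.919) and Add3 (0.916), and for Foxp1 Ccni (0.921), Arid3a (0.911) and Sgpp1 (0.909). For Btg1 they were Tor1aip1 (0.952), Cyp20a1 (0.921) and Scd1 (0.914), and for Btg2 Dennd6b (0.898), Spint1 (0.859) and Fbln7 (0.852). For Klf2 they were Wrnip1 (0.955), Pdcd10 (0.937) and Rbm22 (0.925), for Klf4 5730455P16Rik (0.924), Tmem204 (0.924) and Tmem170 (0.923), and for Klf6 Cflar (0.915), Jak1 (0.891) and Bclaf1 (0.89). For Foxo1 they were Rnf10 (0.888), Lancl1 (0.875) and Pigh (0.856), and for Tob1 Irf2bpl (0.893), Rfx3 (0.875) and Kantr (0.867). These are the highest of many correlations over points that share array scaling and RNA preparation, and they describe these arrays alone.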

How the data were processed

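The deposited data are 1 table with 45101 probe sets (64 are array controls) in which each value is a log-like score. Its log base, scaling and the software that made it are not given in the sources used here, so no fold was computed, and the plan to treat the values as log2 was dropped. No depth underlies array values, and the number of arrays limits the precision. Values below 0.495 were raised to that floor, the middle of the 16 arrays' 40th percentiles. Gene symbols came from the platform annotation, updated through RefSeq (GRCm38.p6; 99.42% matched by Entrez identifier). Group means of 4 arrays were fitted over all 16 in limma 3.58.1 (R 4.3.3, statmod 1.5.0), with two-sided moderated tests and Benjamini-Hochberg adjustment over 35032 probe sets, tested on simulated data. Lists counted each gene by its probe set with the highest mean, called the brightest. The members, the gene lists and the tests were chosen with earlier results of these data known. Named were all member probe sets, up to 4 genes with the smallest adjusted p of each list in a comparison, Cdkn2c, markers of the cells and, per member, the 3 most alike genes. The design text calls the arrays biological replicates, and if they are not separate animals the p-values measure only the spread between these samples. Same-numbered arrays of the Bs groups deviated together (r of 0.106 to 0.596, over 0.1 in 4 of 4 pairs), so these numbers pair Sle2c1 with B6 Bs samples, a pairing that comes from the values and not from a label. No other pair of groups met that rule. Alternatives changed the filter, floor, scaling, test and arrays. Promoter windows are from RefSeq, and no genome was used.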

Additional observations from a re-analysis of the deposited data

Results flagged for a closer look

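The strain effect on Klf3 probe set 1429360_at differed between B1a and Bs cells by the interaction test (-0.587 units). That call was lost with the replicate number as a block within each cell type (adjusted p = 0.0623 by limma) and under 8 more settings. Among 139 groups of 4 arrays over the 35 probe sets that could be tested, 8 held an array far from the others by Dixon's criterion, which flags about 1 group in 20 by chance. Klf3 1421604_a_at had 2.11 units in Sle2c1 Bs replicate 4, against 1.58 to 1.67 on the others. Klf3 1431630_a_at had 1.14 units in Sle2c1 B1a replicate 1 and 1.54 in Sle2c1 Bs replicate 4. Klf6 1427742_a_at had 1.67 units in B6 B1a replicate 4, and Foxo1 1456529_at had 0.54 in Sle2c1 B1a replicate 2, the others there lying at the floor. In B6 Bs cells, Foxo3 1434832_at had 2.82 units in replicate 4, Foxp1 1438802_at had 0.97 in replicate 3 and Btg1 1437455_a_at had 3.85 in replicate 1.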

How the results depend on the processing

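The 4 member calls between strains in B1a cells, all of Klf3, became 7 with a trended, robust prior (Foxp1 1421142_s_at, 1435222_at and 1455242_at added), 7 at adjusted p under 0.10 (Foxp1 1421142_s_at and 1438802_at and Klf3 1442920_at added), 2 with only the 8 arrays compared, and 0 with the hybridisation control scaling, which was added after the data were seen. By the brightest probe set the 1 gene became 2 with the trended, robust prior, and 0 with only 8 arrays, at adjusted p under 0.01 and with the control scaling. The 1 interaction call became 0 with a filter on at least 8 arrays, no floor, median centring, quantile normalization, the trended, robust prior, adjusted p under 0.01, a replicate block within each cell type, the control scaling, or without the 4 arrays in doubt. It became 2 with a floor at 1 unit, array weights or adjusted p under 0.10. Between cell types the 18 calls in Sle2c1 mice became 1 and the 13 in B6 mice became 2 with the control scaling, and 6 in B6 mice with median centring. By the brightest probe set the 5 genes became 3 (Sle2c1) and 2 (B6) with median centring, and 0 and 1 with the control scaling. Leaving out single arrays gave 4 to 6 calls between strains in B1a cells (1 to 1 by gene), 0 to 0 in Bs cells, 0 to 2 for the interaction (0 to 0 by gene), 17 to 20 in Sle2c1 (5 to 6 by gene) and 11 to 14 in B6 mice (5 to 6 by gene). With the replicate number as a block over 16 arrays the counts were 4, 0, 1, 18 and 13, and within each cell type 5, 0, 0, 20 and 13. Outside the Bs groups the numbers did not pair. Under the control scaling 16 of the 31 member calls between cell types turned positive. In Sle2c1 mice these were Klf3 1429360_at 0.218, Foxo3 1434832_at 0.0246, Foxp1 1421140_a_at 0.401, 1421142_s_at 0.393, 1435221_at 0.00542 and 1435222_at 0.0475, Btg1 1426083_a_at 0.0159 and 1437455_a_at 0.0313, and Btg2 1416250_at 0.328. In B6 mice they were Klf3 1421604_a_at 0.305, 1442920_at 0.0734 and 1454666_at 0.157, Foxo3 1434831_a_at 0.164 and 1434832_at 0.255, Foxp1 1455242_at 0.121, and Btg1 1426083_a_at 0.0104. Because that scaling also put the median of all probe sets at 0.381 units in Sle2c1 and 0.436 in B6 mice, these signs are not relative to the other genes. Relative to that median 14 of the 16 stayed below 0, between -0.425 and -0.0536 units, and Foxp1 1421140_a_at (0.0194) and 1421142_s_at (0.0113) did not. The cause of the changed counts was not tested. Of the single-probe-set results, 86 lost a call over the other settings (16 of them with a turned sign) and 42 gained one, and 32 and 16 did over single arrays left out. Signals near the floor limit the dim Klf3, Foxo1 and Foxp1 probe sets.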
